A study of Mus musculus with 435 samples.

Results

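The genes described are the enzymes that make, cleave and first oxidise acyl-CoA: the acyl-CoA synthetases of the Acsl and Acsm families, the acyl-CoA thioesterases (Acot), the acyl-CoA dehydrogenases outside the classical medium-, long- and very-long-chain enzymes (Acad), the acyl-CoA oxidases (Acox) and the acetyl-CoA acetyltransferase Acat1. They were chosen by gene symbol, under a rule set with earlier results of these data known. Of the 13379 genes on the table, 24 met the rule. The synthetases were Acsl3, Acsl4, Acsl5, Acsm1, Acsm2, Acsm3 and Acsm5. The thioesterases were Acot2, Acot4, Acot6, Acot7, Acot8, Acot9 and Acot13. The others were Acad8, Acad9, Acad10, Acad12, Acads, Acadsb, Acox2, Acox3, Acoxl and Acat1. Each was read by 1 probe set. Acadm, Acadl, Acadvl and Acaa2 were left out by the rule and are counted only in the list of mitochondrial beta-oxidation genes near the end. The remaining genes of these families were not analysed here. Livers came from 435 F2 mice of a cross between DBA/2J females and C57BL/6 males, with 1 Affymetrix array per mouse. All mice were db/db, meaning that they lacked a working leptin receptor, and all ate chow, so no group with a working receptor or another diet stands beside them. The groups were 118 females and 101 males killed at 5 weeks and 110 females and 106 males killed at 12 weeks. Values are log2 expression levels, so a difference of 1 is a doubling, and a level is compared only with levels of the same gene.

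A fatty acid enters metabolism only after a synthetase has joined it to coenzyme A, and a thioesterase can reverse that step and free the acid again. The acyl-CoA is then built into triglycerides and phospholipids or shortened by oxidation, which a dehydrogenase begins in mitochondria and an oxidase begins in peroxisomes. In liver, many genes of both oxidation routes, several thioesterases included, are known targets of the fatty acid sensor PPAR-alpha, while some synthetases are known targets of the insulin- and sterol-regulated SREBP factors.

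Liver identity was clear from the markers: 7 measured hepatocyte markers summed to a log2 level of 16.6 to 17.0 in every group. Across arrays the median probe set lay between 5.56 and 5.70. In 8 arrays the X-linked genes lay nearer to the other sex than to the label. The muscle marker Ckm stood at 10.9 and 10.1 in 2 arrays of 5-week females, against at most 5.89 in all others, and the acinar markers summed to 12.3 in a 12-week male, against at most 10.2 elsewhere. Leaving out the 8 arrays, or these 3, left each count of called genes below within 1.5 times its value. Because the samples are whole liver, fewer cells of a type and less RNA per cell cannot be told apart. No label names a litter, and each mouse was taken as an independent sample.

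Promoter sequence from RefSeq (GRCm38.p6), the 250 bases before a transcript start, was found for 20 of the 24 genes. The 120 bases just before the start are shown for the thioesterases Acot2, Acot4 and Acot8 and for the synthetases Acsl3 and Acsl5, because each of these sets varied together from mouse to mouse (below). Each runs 5′ to 3′ on the gene's strand, and capitals mark matches, on either strand, to the 3 motifs spelled out after the sequences.
Acot2, chr12:83987741-83987860, + strand: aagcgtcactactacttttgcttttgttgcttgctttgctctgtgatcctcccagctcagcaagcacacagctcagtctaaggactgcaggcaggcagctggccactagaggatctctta
Acot4, chr12:84038259-84038378, + strand: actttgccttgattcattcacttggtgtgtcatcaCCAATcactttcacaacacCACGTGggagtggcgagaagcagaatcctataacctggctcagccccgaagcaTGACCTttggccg
Acot8, chr2:164804882-164805001, - strand: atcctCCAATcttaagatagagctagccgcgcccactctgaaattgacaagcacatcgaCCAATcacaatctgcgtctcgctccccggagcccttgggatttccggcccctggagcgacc
Acsl3, chr1:78657705-78657824, + strand: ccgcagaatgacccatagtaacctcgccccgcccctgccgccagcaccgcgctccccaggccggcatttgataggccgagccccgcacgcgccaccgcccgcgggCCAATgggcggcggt
Acsl5, chr19:55253249-55253368, + strand: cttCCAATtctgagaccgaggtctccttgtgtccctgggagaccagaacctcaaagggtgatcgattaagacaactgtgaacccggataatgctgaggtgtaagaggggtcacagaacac

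The nuclear receptor half-site AGGTCA, which on the opposite strand of the promoter reads TGACCT, was matched once in these 5 windows, 13 to 8 bases before the start of Acot4. Over 250 bases it was found in 9.09% of the 22 promoters of the 24 genes (some genes have more than 1), and in 14.0% of all 32851 mouse promoters in the table. The CCAAT box, which on the opposite strand of the promoter reads ATTGG, was found in 54.5% of the 22 and in 33.8% of all, with 2 copies in the window of Acot8, at 115 to 111 and at 61 to 57 bases before the start. The E-box CACGTG, which reads the same on both strands, was found in 9.09% and in 6.02%. The motifs do not overlap in these windows, and a match describes the letters only.

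With age, the synthetases of the Acsl family fell and most thioesterases and dehydrogenases rose. In females 11 of the 24 genes were higher and 7 lower at 12 than at 5 weeks, where 22.1% of all genes were higher and 24.2% lower. In males 14 were higher and 6 lower, where 22.3% of all genes were higher and 24% lower. A gene was called when its Benjamini-Hochberg adjusted p over all 13379 genes was under 0.05 in limma's fit of group and array batch. The same 16 genes were called in both sexes, each with the same sign, while Acad10 and Acot13 were called in neither. The share of all genes called in both sexes was not computed, so this overlap may not be particular to the 24 genes. The median size of the age difference was 0.13 in females and 0.16 in males, against 0.050 and 0.053 over all genes. No gene separated the groups: the ranges of all 24 overlapped between ages in each sex and between sexes at each age.

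**Figure D1:**
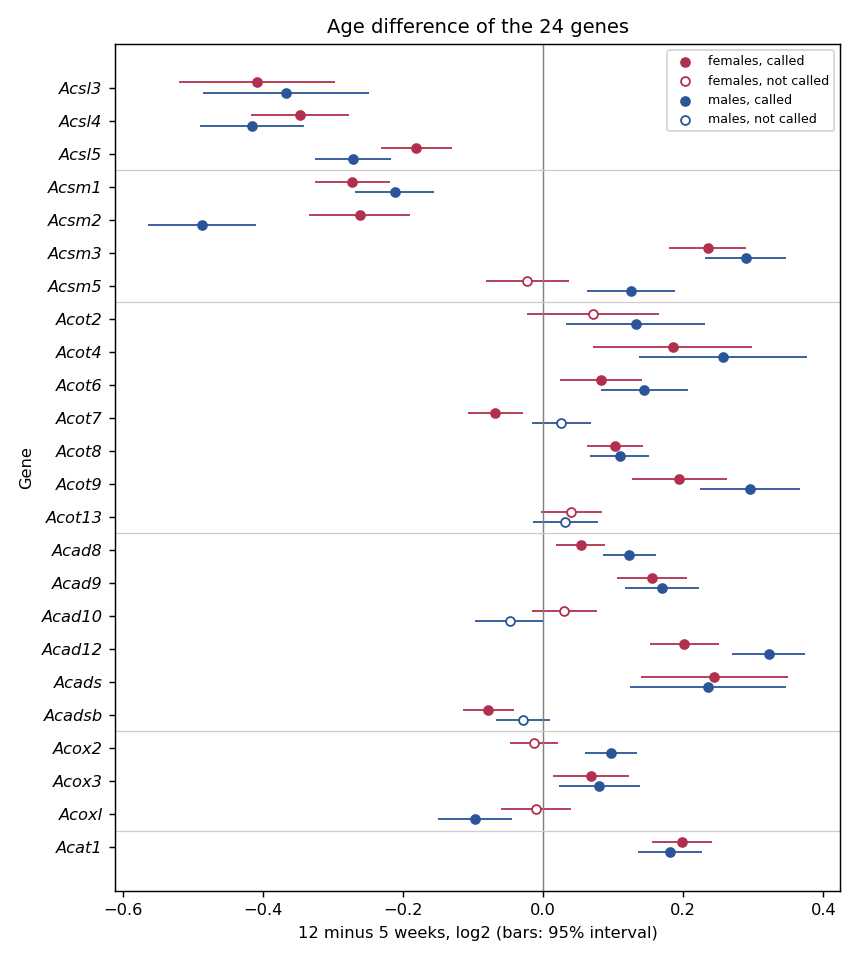
Age difference (12 minus 5 weeks, log2, x axis) of each of the 24 genes (y axis, grouped by enzyme family) in females and males, with 95% intervals from limma; filled points passed the adjusted p of 0.05. The 3 Acsl genes lie left of 0 in both sexes, down to -0.41 for Acsl3 in females and -0.42 for Acsl4 in males, and most Acot and Acad genes lie right of 0.

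Acsl3 (chromosome 1), a long-chain synthetase of the endoplasmic reticulum and lipid droplets, ranged from 5.20 to 7.28 with a median of 6.07 in 5-week females and from 4.91 to 7.20 with a median of 5.73 in 12-week females. In males it ranged from 4.97 to 7.41 with a median of 5.76 at 5 weeks and from 4.65 to 6.44 with a median of 5.57 at 12 weeks. The 5-week females were highest and the 12-week males lowest, with wide overlap, and only 19.1% of the 12-week females lay above the 5-week female median. It fell by 0.41 ± 0.057 (SE; n = 118 and 110) in females, 1.33-fold lower at 12 weeks, and by 0.37 ± 0.060 in males (limma adjusted p = 2.98e-11 and 2.02e-08). The size varied by array batch, at -0.084 to -0.73 for females and -0.15 to -0.55 for males, and stayed below 0.

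Acsl4 (X chromosome), which prefers arachidonic acid and other polyunsaturated fatty acids, had 5-week medians of 7.68 in females and 7.6 in males, with ranges of 6.71 to 8.25 and 6.79 to 8.39. At 12 weeks the medians were 7.33 and 7.29 and the ranges 6.77 to 7.85 and 6.47 to 7.85. Hardly any older mouse reached the middle of the younger group: 4.55% of 12-week females and 12.3% of 12-week males lay above the 5-week median of their sex. The fall was 1.27-fold in females and 1.33-fold in males (adjusted p = 5.45e-19 and 2.78e-23). Of 6 macrophage markers measured, 4 fell in females and all 6 in males over the same interval, Clec4f by 0.20 ± 0.036 and 0.33 ± 0.038. Their summed log2 level had medians of 12.2 and 12.1 at 5 weeks (females 11.7 to 12.9, males 11.6 to 12.7) and of 12.0 and 11.8 at 12 weeks (11.3 to 12.6 and 11.1 to 12.7), with none at 0. Their part in the fall of Acsl4 was not tested.

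Acsl5 (chromosome 19), the long-chain synthetase of liver and gut known to respond to insulin through SREBP-1c, differed by both age and sex. Its median was 13.20 in 5-week females (12.74 to 13.43), 13.02 in 5-week males (12.31 to 13.48), 13.03 in 12-week females (12.49 to 13.34) and 12.74 in 12-week males (12.07 to 13.16). The young females stood highest and the older males lowest, and the medians of the other groups lay between them. The fall with age was 0.18 ± 0.026 in females and 0.27 ± 0.027 in males (adjusted p = 9.05e-11 and 1.53e-19). Males lay below females by 0.18 ± 0.026 at 5 weeks (fold 1.13) and by 0.27 ± 0.026 at 12 weeks (fold 1.20; adjusted p = 1.66e-09 and 1.36e-19), and the difference between these effects, -0.090 ± 0.037, was not called (adjusted p = 0.105).

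The medium-chain synthetases, whose 4 measured genes Acsm1, Acsm2, Acsm3 and Acsm5 lie in a cluster on chromosome 7 in the RefSeq gene table, went in different directions. Acsm2 had medians of 4.36 in 5-week females (3.65 to 5.42), 4.70 in 5-week males (3.97 to 5.89), 4.10 in 12-week females (3.67 to 4.78) and 4.21 in 12-week males (3.73 to 4.84). High values were seen mainly in young males, and 1.89% of the 12-week males lay above their median. It fell by 0.26 ± 0.037 in females and by 0.49 ± 0.039 in males, 1.20-fold and 1.40-fold (adjusted p = 5.43e-11 and 1.05e-28). All its values lay between 3.65 and 5.89, and whether they exceed background is not known here. Acsm1, a mitochondrial enzyme, had medians of 11.55 and 11.64 at 5 weeks and of 11.32 and 11.43 at 12 weeks in females and males, with ranges of 11.11 to 11.94, 11.25 to 12.04, 10.76 to 11.78 and 10.68 to 11.90. It fell by 0.27 ± 0.027 and 0.21 ± 0.029 (adjusted p = 6.15e-20 and 1.36e-11). Acsm3 rose, by 0.23 ± 0.028 in females and 0.29 ± 0.029 in males (adjusted p = 6.14e-15 and 2.86e-19). Acsm5 rose in males (0.13 ± 0.032, adjusted p = 0.00043) and stood at -0.022 ± 0.030 in females (adjusted p = 0.579).

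**Figure D2:**
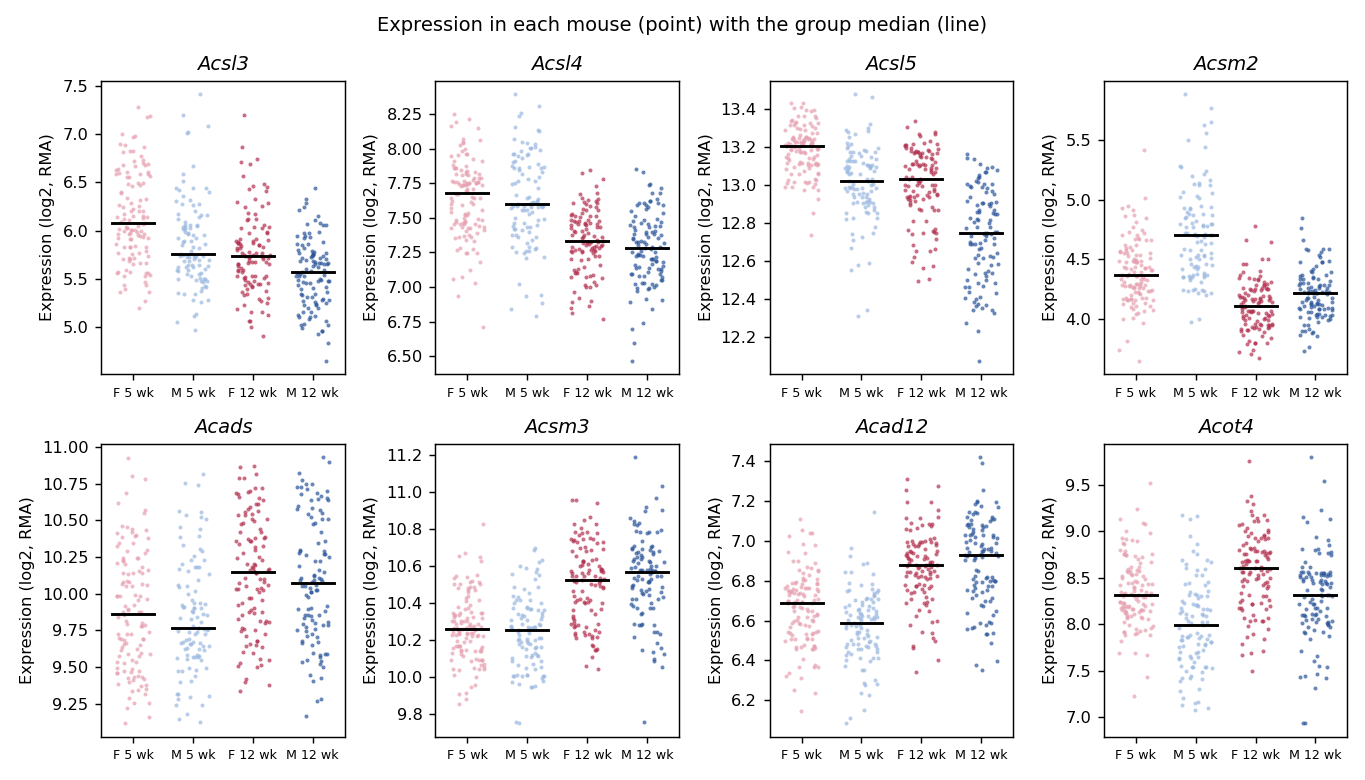
Log2 RMA expression (y axis) of 8 of the genes in every mouse (points) of the 4 groups (x axis: F, females, and M, males, at 5 and 12 weeks), with the group median as a line. Acsl4 medians drop from 7.68 and 7.6 at 5 weeks to 7.33 and 7.29 at 12 weeks, and Acot4 medians are lower in males (7.99 and 8.31) than in females (8.31 and 8.61) of the same age; all groups overlap.

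Among the thioesterases, which hydrolyse acyl-CoA to free fatty acid and CoA, 4 of 7 rose with age and 1 fell in females, and 5 rose and none fell in males. Acot4, a peroxisomal enzyme that cleaves succinyl-CoA, had medians of 8.31 in 5-week females (7.23 to 9.52), 8.61 in 12-week females (7.49 to 9.76), 7.99 in 5-week males (7.07 to 9.18) and 8.31 in 12-week males (6.93 to 9.80). Older mice were higher in either sex and females higher at either age, so that the young females and the older males shared a median. It rose by 0.18 ± 0.058 in females and by 0.26 ± 0.061 in males (adjusted p = 0.00429 and 0.000132). Acot9, a mitochondrial thioesterase encoded on the X chromosome, rose by 0.19 ± 0.035 and 0.30 ± 0.037 (adjusted p = 1.99e-07 and 1.08e-13), and the peroxisomal Acot8 by 0.10 ± 0.020 and 0.11 ± 0.022. Acot6, close to Acot4 on chromosome 12, rose by 0.082 and 0.14, and the mitochondrial Acot2, on the same stretch, by 0.13 ± 0.051 in males. The cytosolic Acot7 fell by 0.068 ± 0.020 in females and stood at 0.026 ± 0.021 in males. Acot2, Acot4, Acot6 and Acot1 are close copies of each other, so their probe sets may share signal and their separate values are uncertain.

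Of the 6 dehydrogenases, 4 rose in both sexes: Acad8, the isobutyryl-CoA dehydrogenase of valine breakdown, Acad9, which also helps to assemble respiratory complex I, Acad12, and Acads, the short-chain enzyme. The values of Acad9 lay between 4.60 and 5.78, and whether they exceed background is not known here. Acad12 had medians of 6.69 at 5 weeks (6.14 to 7.11) and 6.88 at 12 weeks (6.34 to 7.31) in females, and of 6.59 (6.08 to 7.15) and 6.93 (6.35 to 7.42) in males. Most older mice exceeded the younger median, 85.5% of females and 89.6% of males, although the ranges overlapped. The rise was 0.20 ± 0.025 in females and 0.32 ± 0.027 in males, 1.15-fold and 1.25-fold (adjusted p = 1.04e-13 and 1.48e-27). Acads rose by 0.24 ± 0.053 and 0.24 ± 0.057 (adjusted p = 2.81e-05 and 0.000155), with single mice between 9.12 and 10.93. Acadsb, which oxidises short branched acyl-CoA from isoleucine, fell in females by 0.078 ± 0.019 (adjusted p = 0.000124) and stood at -0.029 ± 0.020 in males. Acad10, adjacent to Acad12 on chromosome 5, stood at 0.030 and -0.048, with neither called.

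The peroxisomal oxidases had small age differences. Acox3, the oxidase of branched fatty acids such as pristanic acid, rose by 0.068 ± 0.028 in females and 0.080 ± 0.029 in males (adjusted p = 0.0325 and 0.0157). Acox2, which oxidises the branched side chain of bile acid precursors, rose in males alone by call, 0.097 ± 0.019 against -0.013 ± 0.018 in females, and the difference was itself called (below). Acoxl, named for its likeness to these oxidases, fell by 0.097 ± 0.027 in males and stood at -0.0099 ± 0.025 in females. Its values lay between 4.36 and 5.45, and whether they exceed background is not known here. The mitochondrial thiolase Acat1, which acts in ketone body and isoleucine metabolism, rose by 0.20 ± 0.022 and 0.18 ± 0.023, and 85.5% of 12-week females and 82.1% of 12-week males lay above the 5-week median (adjusted p = 5.99e-17 and 6.17e-13). Within the 4 batches that held all groups, 16 of 18 female calls and all 20 male calls kept their sign in each, which is partly built in because the calls use those same mice; the exceptions were Acot6 (-0.059, 0.25, 0.096 and -0.015) and Acot7 (-0.023, -0.13, -0.12 and 0.022). The calls of Acad8, Acot6, Acot7 and Acox3 in females and of Acot2 and Acox3 in males were lost without 1 or another batch, and Acox3 also with the array plate in place of the batch.

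Males had less of several thioesterases and Acsl synthetases than females, and more Acsm1 at both ages. At 5 weeks 4 of the 24 genes were higher and 8 lower in males, where 10.5% of all genes were higher and 14.4% lower. At 12 weeks 6 were higher and 6 lower, where 8.97% were higher and 9.08% lower. The median size of the sex difference was 0.058 and 0.067, against 0.034 and 0.029 over all genes. None of the 7 thioesterases was higher in males at 5 weeks and 5 were lower, and at 12 weeks 1 was higher and 3 lower. Acot4 showed the widest gap: males lay below females by 0.36 ± 0.058 at 5 weeks and by 0.28 ± 0.058 at 12 weeks, 1.28-fold and 1.22-fold (adjusted p = 6.81e-08 and 3.95e-05). Only 23.8% of 5-week males and 17.9% of 12-week males lay above the female median.

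Acot2, the mitochondrial enzyme of the same gene cluster, had medians of 6.37 in females (5.52 to 7.27) and 6.15 in males (4.90 to 7.14) at 5 weeks, and of 6.47 (5.51 to 7.23) and 6.29 (5.05 to 7.49) at 12 weeks. Females were the higher sex at each age, with the ranges nearly coextensive. The gap was -0.22 ± 0.048 and -0.16 ± 0.048 (adjusted p = 7.00e-05 and 0.00805). Acot13 (Them2), a long-chain thioesterase at mitochondria, had medians of 10.98 in females (10.58 to 11.47) and 10.84 in males (10.25 to 11.26) at 5 weeks, and of 11.08 (10.47 to 11.44) and 10.87 (10.14 to 11.21) at 12 weeks. Males were lower at both ages, by 0.17 ± 0.022 and 0.18 ± 0.023 (adjusted p = 1.09e-11 and 1.64e-12), and 13.9% and 11.3% of them exceeded the female median, although the gene was called for age in neither sex. Acot7 was lower in males by 0.15 ± 0.020 at 5 weeks (adjusted p = 1.18e-10) and by 0.053 ± 0.020 at 12 weeks, which was not called (adjusted p = 0.0517).

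Acsl3 was lower in males by 0.27 ± 0.057 at 5 weeks and 0.23 ± 0.058 at 12 weeks (adjusted p = 3.77e-05 and 0.000931), as was Acsl5. The X-linked Acsl4 stood at 0.0030 ± 0.036 and -0.065 ± 0.036 between males and females (95% intervals -0.067 to 0.073 and -0.14 to 0.0057), not called at either age. Acsm2 was higher in males by 0.32 ± 0.037 at 5 weeks (adjusted p = 1.95e-14), with 81.2% of males above the female median, and stood at 0.096 ± 0.037 at 12 weeks (adjusted p = 0.0559). Acsm1 was higher in males by 0.088 ± 0.027 and 0.15 ± 0.028 (adjusted p = 0.00849 and 3.68e-06). Higher in males at 12 weeks were also Acadsb, Acsm5, Acox2, Acot9 and Acad8, by 0.067 to 0.13, and Acat1 was lower by 0.068; Acadsb was likewise higher at 5 weeks, by 0.060.

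**Figure D3:**
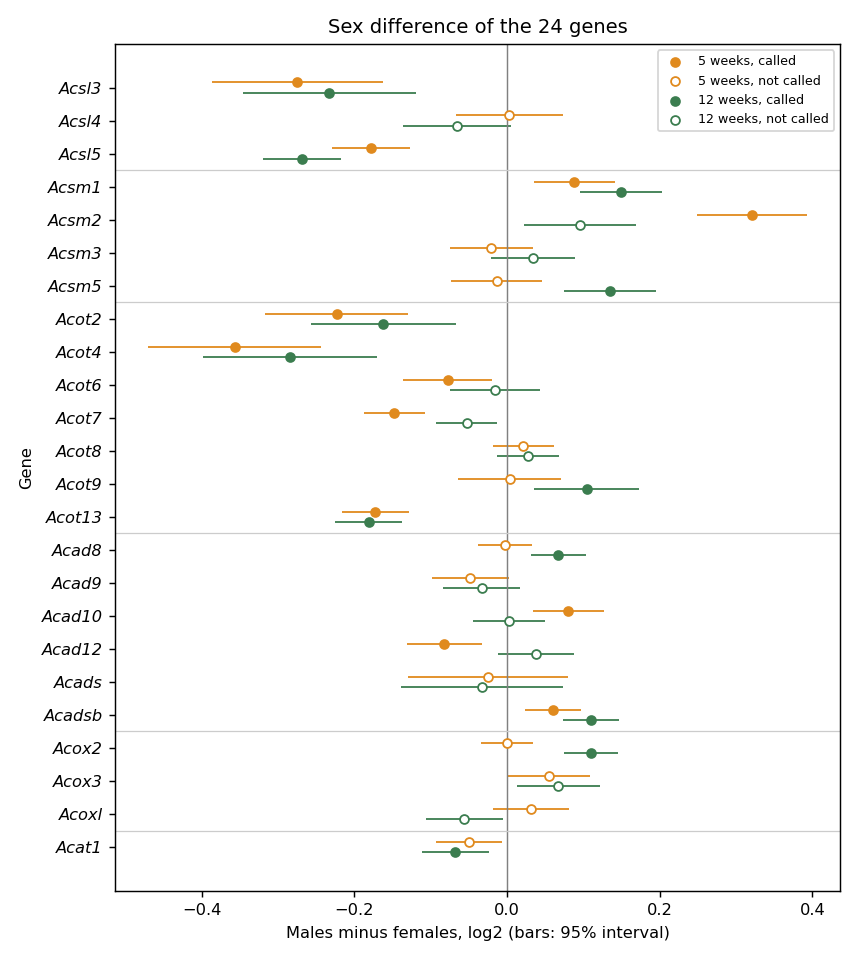
Sex difference (males minus females, log2, x axis) of each of the 24 genes (y axis, grouped by enzyme family) at 5 and 12 weeks, with 95% intervals from limma; filled points passed the adjusted p of 0.05. Acot4, Acot2, Acot13, Acsl3 and Acsl5 lie left of 0 at both ages, Acot4 at -0.36 and -0.28, and Acsm2 stands at 0.32 at 5 weeks.

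All 12 calls at 5 weeks and 11 of 12 at 12 weeks kept their sign in each of the 4 batches; Acat1 at 12 weeks did not (-0.053, -0.066, 0.0020 and -0.17). Without 1 or another batch, calls were lost for Acad10, Acad12, Acadsb, Acot6 and Acsm1 at 5 weeks and for Acad8, Acat1, Acot2, Acot9 and Acsl3 at 12 weeks. Of the 6 macrophage markers, 3 were lower in males at 5 weeks and all 6 at 12 weeks. The erythroid marker Alas2, the only one of its list measured, was higher in males by 0.71 ± 0.063 and 0.51 ± 0.064 (8.46 to 11.0 in young females, 8.95 to 11.1 in young males, 8.48 to 10.9 in older females and 8.80 to 11.3 in older males). The 3 lymphocyte markers were Cd3e, Ms4a1 and Ptprc, the last shared with other leukocytes. Of these 1 was lower in males at 5 weeks and 2 at 12 weeks, Ptprc by 0.12 ± 0.047 and 0.35 ± 0.047. The part of these cells in the sex differences was not tested.

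The age difference itself differed between the sexes for 5 of the 24 genes. In 4 it was higher in males, where 5.74% of all genes were, and in 1 it was lower, where 2.82% were. Acsm2 fell further in males than in females, by 0.22 ± 0.053 (adjusted p = 0.00115). For Acsm5 the male age difference exceeded the female one by 0.15 ± 0.043 (adjusted p = 0.014), for Acad12 by 0.12 ± 0.036 (adjusted p = 0.0157), for Acox2 by 0.11 ± 0.025 (adjusted p = 0.00077) and for Acot7 by 0.094 ± 0.029 (adjusted p = 0.0183). Acox2 had medians of 12.02 in females (11.72 to 12.42) and 12.02 in males (11.71 to 12.36) at 5 weeks, and of 11.99 (11.74 to 12.31) and 12.12 (11.51 to 12.40) at 12 weeks. The sexes thus shared a level when young, and 84.0% of the older males lay above the older female median. Acsm5 showed the same layout, with medians of 10.38 (9.80 to 10.98) and 10.32 (9.86 to 11.06) at 5 weeks and of 10.34 (9.83 to 10.85) and 10.48 (9.96 to 10.94) at 12 weeks in females and males. The medians of Acot7 were 8.69 (8.24 to 9.03) and 8.54 (7.99 to 8.96) at 5 weeks and 8.62 (8.30 to 8.99) and 8.60 (8.08 to 8.84) at 12 weeks, so that the young females alone stood above the rest. All 5 kept their sign in each batch, and each lost its call without at least 1 batch; without batch 1 only Acsm2 was called, and without batch 3 there were 3 calls.

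Each mouse also had plasma and liver fat measurements, and the slopes below give the log2 change in expression per 1 SD of the log2 trait among mice of an age, adjusted for sex and batch. At 5 weeks the females had a median glucose of 224 mg/dl and the males one of 240; at 12 weeks the medians were 460.5 and 599.5. Median insulin was 50.0, 45.4, 128 and 61.05 uIU/ml in the same order. The liver fat fraction from nuclear magnetic resonance had medians of 0.156, 0.148, 0.203 and 0.226. The trait fits of an age use the same mice, so the results for different traits are not independent of each other.

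With the liver fat fraction at 12 weeks, 10 of the 24 genes were higher and 3 lower in fatter livers, where 13% of all genes were higher and 13% lower, and all 13 slopes kept their sign in each batch. Acot2 had the steepest slope, 0.15 ± 0.023 per SD (adjusted p = 3.33e-08), between 0.13 and 0.18 in single batches. Acot9 followed with 0.12 ± 0.016 (adjusted p = 2.59e-11), Acsl3 with 0.11 ± 0.026 and Acsl5 with 0.10 ± 0.013 (adjusted p = 0.000377 and 1.19e-11). Acsm1 fell with liver fat, at -0.11 ± 0.014 (adjusted p = 1.12e-12), and so did Acsm2 and Acadsb, at -0.085 and -0.086. Of the markers of other cells, 1 of 6 macrophage, 1 of 3 lymphocyte, 2 of 4 stellate, 2 of 5 endothelial and 1 of 2 adipocyte markers were higher in fatter livers, and their part was not tested. Of 7 hepatocyte markers 2 were higher and 2 lower. At 5 weeks 3 genes were higher and 1 lower, where 3.06% and 2.54% of all genes were. Acot2 again had the steepest slope, 0.15 ± 0.021 (adjusted p = 1.68e-08), with Acot8 at 0.055 ± 0.0096, Acat1 at 0.050 ± 0.0095 and Acsm1 at -0.038 ± 0.011, the last not called under several alternatives (adjusted p = 0.0513 with body weight). The Acot2 slopes of the ages differed by -0.00083, with a 95% interval of -0.062 to 0.061. Across the 24 genes, 6 slopes on liver fat were higher and 3 lower at 12 than at 5 weeks, where 6.65% and 5.99% of all genes were. For Acsl3 the slope went from -0.066 ± 0.030 at 5 weeks, not called, to 0.11, a difference of 0.20 ± 0.040 (adjusted p = 6.47e-05).

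Insulin showed no slope among these genes at 5 weeks and many at 12 weeks. At 5 weeks 0 of 24 were called by limma, with 2 at an unadjusted p under 0.05, where 1.02% of all genes were higher and 1.43% lower. At 12 weeks 9 were higher and 5 lower in mice of higher insulin, where 13.4% and 14.1% of all genes were. The synthetases Acsl5 and Acsl3 led, at 0.12 ± 0.012 and 0.12 ± 0.026 (adjusted p = 1.20e-17 and 6.00e-05), against -0.0035 ± 0.012 and -0.019 ± 0.030 at 5 weeks. Acot9 had 0.074 ± 0.017, Acot13 0.067 ± 0.012 and Acadsb -0.066 ± 0.010 (adjusted p = 0.000226, 5.17e-07 and 5.24e-08). The Acsl3 slope was 0.065, 0.14, 0.20 and -0.016 in batches 1 to 4, and 8 of the 14 calls kept their sign in each. Without batch 2 there were 7 calls, Acsl3 and Acsl5 among them. Among markers of other cells, 3 of 6 macrophage and 3 of 3 lymphocyte markers and the erythroid Alas2 (0.23) were higher with insulin at 12 weeks. Higher too were 1 of 4 stellate and 1 of 4 cholangiocyte markers, and none of these lists had a lower one. None of 5 endothelial and 2 adipocyte markers was called. Of 7 hepatocyte markers 3 were higher and 3 lower. The part of these cells in the insulin slopes was not tested. Tested directly, 6 insulin slopes were higher and 2 lower at 12 than at 5 weeks, where 6.96% and 6.27% of all genes were, with Acsl5 at 0.13 ± 0.017 (adjusted p = 1.18e-11) and Acsl3 at 0.15 ± 0.040 (adjusted p = 0.00338).

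At 12 weeks 10 of the genes called for insulin went with plasma triglycerides in the other direction. Acot2 was called for triglycerides and not for insulin. In mice of higher triglycerides 4 of the 24 genes were higher and 7 lower, where 10.7% of all genes were higher and 8.93% lower. Acot2 had -0.12 ± 0.024, Acsl5 -0.085 ± 0.014 and Acsm1 0.082 ± 0.015 (adjusted p = 1.26e-05, 1.52e-07 and 1.96e-06). Acot6 had 0.077 ± 0.015 and Acsl3 -0.074 ± 0.026 (adjusted p = 1.66e-05 and 0.0317). Without batch 2 the slopes of Acot2 (-0.081), Acsm1 (0.049) and Acsl3 (-0.065) were not called, and Acsl3 was not called without batch 3 or with body weight either. Of the genes called for both insulin and triglycerides at this age, all 10 had opposite signs for the traits. All 11 called for both insulin and liver fat had the same sign. These are the same mice, and the matching shares over all genes were not computed, so the counts may not be particular to the 24 genes. At 5 weeks 5 genes were higher and 3 lower with triglycerides, where 9.16% and 5.39% of all genes were. Acsl3 had -0.12 ± 0.029 (adjusted p = 0.000598), Acox3 0.071 ± 0.014, Acot9 0.053 ± 0.017, Acsm1 -0.048 ± 0.011 and Acsl5 -0.045 ± 0.011. Only 4 of these 8 kept their sign in each batch: Acox3 stood at -0.044 in batch 2, Acsm1 at 0.016 in batch 2, Acot9 at -0.0022 in batch 4 and Acad12 at -0.0021 in batch 2. With body weight as a covariate 1 of the 8 was called. Alas2 was higher with triglycerides at 5 weeks (0.11) and lower at 12 weeks (-0.10). At 5 weeks 2 of 4 stellate and 1 of 2 adipocyte markers were also higher, and 1 of 5 endothelial and 1 of 3 lymphocyte markers lower. At 12 weeks 1 of 5 endothelial markers was lower, and of 4 cholangiocyte markers 1 was higher and 1 lower. Of 7 hepatocyte markers 1 was higher and 3 lower at 5 weeks, and 1 higher and 2 lower at 12 weeks. The part of these cells was not tested.

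For 3 genes the sign of the triglyceride slope turned between the ages, with a call at each. Acsm1 went from -0.048 at 5 weeks to 0.082 at 12 weeks, a difference of 0.13 ± 0.018 (adjusted p = 4.68e-10). Acot9 went from 0.053 to -0.049, a difference of -0.10 ± 0.024 (adjusted p = 0.00073), and Acad12 from 0.034 to -0.050, a difference of -0.080 ± 0.018 (adjusted p = 0.00016). In all, 2 triglyceride slopes were higher and 6 lower at 12 than at 5 weeks, where 7.37% and 8.69% of all genes were. With body weight as a covariate none of the 3 was called at 5 weeks (Acsm1 -0.032, Acot9 0.016 and Acad12 0.0052), and without batch 2 none of the 3 was called at 12 weeks. Acot9 was also not called at 12 weeks with body weight (-0.038, limma adjusted p = 0.127), nor without batch 3 or 4. With triglycerides not on the log2 scale, Acot9 was called at neither age and Acad12 not at 5 weeks. After quantile normalization of the arrays Acad12 was not called at 5 weeks either. The 5-week slope of Acot9 was 0.0075 without batch 1 (adjusted p = 0.88), and that of Acad12 was 0.018 without batch 3. For Acot2 the slopes were 0.062 ± 0.023, not called, and -0.12, a difference of -0.18 ± 0.033 (adjusted p = 6.83e-06).

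Thioesterases were among the genes that were higher in 5-week mice of higher glucose. Of the 24 genes 8 were higher and 3 lower, where 4.51% of all genes were higher and 3.61% lower. Acot2 had 0.11 ± 0.023, Acot4 0.097 ± 0.029, Acot9 0.071 ± 0.017 and Acot6 0.069 ± 0.013 (adjusted p = 0.00042, 0.0179, 0.00222 and 7.18e-05), and Acot8 was called too, so that 5 of the 7 thioesterases were higher. Acsl3 was lower, at -0.10 ± 0.030 (adjusted p = 0.0116). With body weight as a covariate 4 of the 11 genes were called: Acot4, Acot9 and Acsl3 were then not (adjusted p = 0.117, 0.12 and 0.277), nor were Acad9, Acox3, Acsl5 and Acsm1. Acot4 was also not called without batch 1, 2 or 4, and Acsl3 not without batch 3 or 4, while Acot2, Acot6 and Acot8 were called under every alternative run. Of 3 lymphocyte markers 2 were lower with glucose at either age, and Alas2 was lower at 12 weeks, at -0.13. At 5 weeks 1 of 6 macrophage, 1 of 4 stellate and 1 of 2 acinar markers were also lower. Higher at 5 weeks were 1 of 4 stellate and 1 of 2 adipocyte markers. At 12 weeks 1 of 5 endothelial and 1 of 4 cholangiocyte markers were lower. Of 7 hepatocyte markers 3 were lower at 5 weeks, and at 12 weeks 2 were higher and 1 lower. The part of these cells was not tested. At 12 weeks 3 genes were higher and 3 lower, where 7.41% and 5.5% of all genes were. Acot6 had 0.10 ± 0.014 (adjusted p = 2.67e-09), between 0.025 and 0.13 in single batches, and Acsl3 had -0.097 ± 0.026, Acsl5 -0.058 ± 0.014, Acat1 -0.049 ± 0.012 and Acadsb 0.048 ± 0.011. Besides Acot6 only Acsl5 kept its sign in each batch, and Acsl3 stood at 0.050, -0.10, -0.15 and -0.025. With glucose and insulin in a single fit 1 of the 6, Acot6, was still called and 1 other gene was called in addition, and without batch 2 again only Acot6 was called; in the joint fit the Acsl5 slope on glucose was -0.0026 (adjusted p = 0.957). Between the ages 2 glucose slopes were higher and 3 lower at 12 weeks, where 3.29% and 3.3% of all genes were. Among them Acsm1 turned from -0.040 to 0.048, a difference of 0.095 ± 0.019 (adjusted p = 0.00015), and Acot2 went from 0.11 to -0.050, which was not called, a difference of -0.15 ± 0.034 (adjusted p = 0.00114).

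Free fatty acids, the substrate of the synthetases, were tied most closely to Acsl3, and at 5 weeks. There 3 genes were higher and 3 lower in mice of higher free fatty acids, where 5.64% and 4.96% of all genes were. Acsl3 had -0.18 ± 0.027 per SD (adjusted p = 3.10e-08), the steepest of all slopes of the 24 genes on any trait, with -0.21, -0.071, -0.23 and -0.22 in the 4 batches. Acot2 had 0.11 ± 0.022 (adjusted p = 0.000112), Acot8 0.041 ± 0.0099, Acsm3 0.040 ± 0.013 and Acsl5 -0.039 ± 0.011, the last at 0.0099 in batch 2. Without 1 or another batch, Acot8, Acsm3, Acsl5 and Acot13 were not called. Of the markers, 1 of 6 macrophage, 1 of 4 cholangiocyte, 1 of 3 lymphocyte and 1 of 2 acinar ones were lower. Of 5 endothelial markers 1 was higher, and the part of these cells was not tested. At 12 weeks 1 gene was higher and 2 lower, where 2.57% and 2.71% were: Acot8 at 0.040 ± 0.011, Acat1 at -0.052 ± 0.012 and Acot13 at -0.040 ± 0.013. None of these was called without batch 1. Alas2 was lower too, at -0.15, and of 7 hepatocyte markers 1 was higher and 1 lower. Acsl3 then had -0.063 ± 0.027, not called, and its slopes differed by 0.16 ± 0.039 (adjusted p = 0.00264). In all 1 free fatty acid slope was higher and 3 lower at 12 than at 5 weeks, where 3.78% and 3.87% of all genes were.

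**Figure D4:**
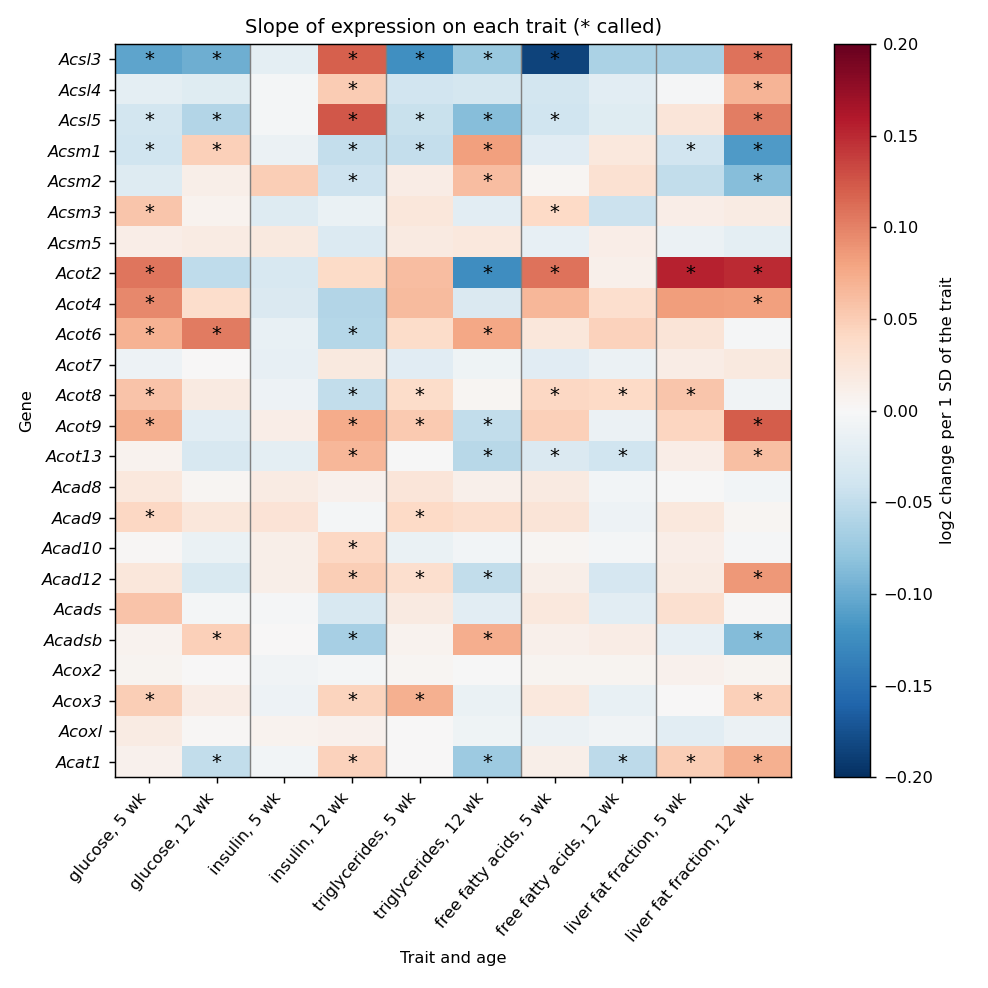
Slope of expression on each trait (colour, log2 change per 1 SD of the trait) for the 24 genes (rows) and 5 traits at 2 ages (columns); asterisks mark limma calls at an adjusted p under 0.05. Acsl3 and Acsl5 are red for insulin and liver fat and blue for triglycerides and glucose at 12 weeks, Acot2 is red for liver fat at both ages (0.15 each), and the insulin column at 5 weeks holds no asterisk.

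Some pairs of the genes also varied together from mouse to mouse once group and batch had been removed. Of the 276 pairs, 90 correlated positively and 51 negatively at a Benjamini-Hochberg adjusted p under 0.05 (permutation test within groups, 100000 resamples). The median Pearson r over the 276 pairs was 0.031. The matching share among pairs of all measured genes was not computed, so these counts may not be particular to the genes described. The strongest pair was Acot13 with Acsl5 (r = 0.647, Spearman's rho = 0.587, n = 435), with r between 0.471 and 0.722 in single batches. Acot2 with Acot4 followed (r = 0.62, rho = 0.569), then Acot13 with Acot7 (r = 0.598, rho = 0.564), Acot2 with Acot8 (r = 0.573, rho = 0.524), Acsl3 with Acsl4 (r = 0.548, rho = 0.559) and Acsl3 with Acsl5 (r = 0.455, rho = 0.459). The largest negative values were those of Acadsb with Acsl5 (r = -0.452, rho = -0.43), Acsm3 with Acsm5 (r = -0.435, rho = -0.468) and Acadsb with Acot13 (r = -0.41, rho = -0.377). For each of these 9 pairs the permutation p was 1e-05, the smallest the resamples can give (adjusted p = 4.31e-05 for r and 4.52e-05 for rho). Without the 2 mice farthest from the median of the first gene of a pair, r was 0.63, 0.604, 0.583, 0.578, 0.54, 0.449, -0.449, -0.441 and -0.391 in the same order. Acsm3 and Acsm5 lie close together on chromosome 7, and their r was between -0.369 and -0.539 in the 4 batches. Acot2 and Acot4 share sequence, and the part of shared probe signal in their r was not tested.

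**Figure D5:**
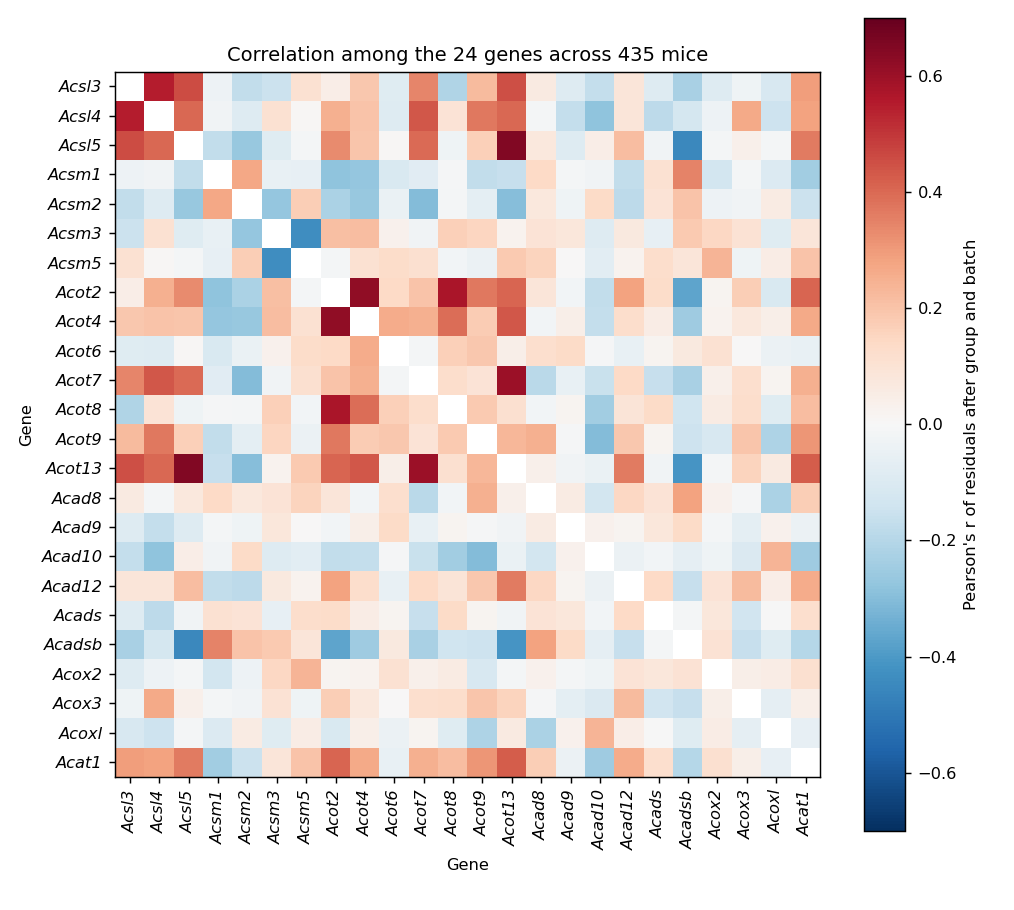
Pearson correlation (colour) between each pair of the 24 genes (both axes, grouped by enzyme family) over 435 mice after group and batch were removed. Acot13 with Acsl5 reaches 0.647 and Acot2 with Acot4 0.62, the 3 Acsl genes form a red block, and Acsm3 with Acsm5 stands out in blue at -0.435.

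Spread within a group differed widely among the genes. Acot4, Acsl3, Acads and Acot2 had residual SDs of 0.429, 0.423, 0.397 and 0.355 after group and batch, at percentiles 98.0, 97.9, 97.2 and 95.3 of all genes, whose median was 0.175. Acox2, Acad8 and Acadsb had 0.129, 0.133 and 0.136, at percentiles 7.56, 9.47 and 11.1. For Acads, the age difference of 0.24 was thus below 1 SD within a group, and a single mouse's value did not tell its age.

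Other genes of fatty acid and sterol metabolism are given beside these by count, with the median of each list next to a median of 0.0025 in females and -0.0043 in males over all genes. The oxidation lists rose in the main. Of 11 further known targets of PPAR-alpha, 11 rose with age in females (median 0.44) and 10 in males (0.22), and none fell, with Vnn1, a pantetheinase, at 1.19 ± 0.066 and 1.08 ± 0.070 and the retinol saturase Retsat at 0.98 ± 0.054 and 0.78 ± 0.058. Of 18 genes of peroxisomal oxidation 11 rose and 5 fell in either sex (medians 0.12 and 0.15), with the peroxisome proliferation gene Pex11a at 1.19 ± 0.057 and 0.91 ± 0.060 and the peroxisomal protease Lonp2 at 0.30 ± 0.057 and 0.34 ± 0.060. Of 17 genes of mitochondrial beta-oxidation and the carnitine shuttle 10 rose and 2 fell in females (median 0.098) and 9 rose and 3 fell in males (0.12), with the carnitine transporter Slc22a5 at 0.66 ± 0.049 and 0.61 ± 0.052. Among 19 other genes of acyl-CoA activation, binding and conjugation, 10 rose and 2 fell in females, and 10 rose and 4 fell in males (medians 0.065 and 0.062). Aacs, which activates acetoacetate, stood at 0.87 ± 0.069 and 0.77 ± 0.073. At 5 weeks 10 of the 11 PPAR-alpha targets were higher in fatter livers and 9 with free fatty acids, with none lower. At 12 weeks 8 were higher and 1 lower in fatter livers, 1 higher and 2 lower with free fatty acids, none higher and 7 lower with triglycerides, and 2 higher and 4 lower with glucose.

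The synthesis lists fell or were mixed. Of 16 sterol synthesis and SREBP2 genes 12 fell and 1 rose in females (median -0.46), and 12 fell and none rose in males (-0.31). Idi1, an isomerase of isoprenoid synthesis, stood at -0.80 ± 0.071 and -0.58 ± 0.075. At 5 weeks 11 of the 16 were lower in males and at 12 weeks 7, and 14 were lower with free fatty acids at 5 weeks. Of 11 fatty acid synthesis genes 2 rose and 2 fell in females (median -0.025), and 1 rose and 6 fell in males (-0.093), among them the desaturase Scd1 by 0.68 ± 0.13 and the citrate lyase Acly by 0.40 ± 0.10. Lower in males were 6 of them at 5 weeks and 8 at 12 weeks, and 9 were higher with insulin and 7 lower with triglycerides at 12 weeks. Branched-chain amino acid breakdown, to which Acad8, Acadsb and Acat1 also belong, was mixed: of 16 genes 4 rose and 6 fell in females and 6 rose and 3 fell in males (medians -0.012 and 0.011). In it Ivd, which oxidises isovaleryl-CoA from leucine, stood at -0.50 ± 0.048 and -0.33 ± 0.050, and Dbt, a subunit of the branched-chain ketoacid dehydrogenase, at -0.44 ± 0.029 and -0.25 ± 0.031. Ketogenesis had 2 measured genes, of which Bdh1, the enzyme that makes beta-hydroxybutyrate, fell by 0.35 ± 0.050 and 0.38 ± 0.053.

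Markers of other cells also moved with age. Of 4 cholangiocyte markers 3 fell in either sex, and their summed log2 level had medians of 7.22 and 7.19 at 5 weeks and of 7.09 and 7.06 at 12 weeks in females and males (6.71 to 7.58 over all groups). Of the adipocyte markers only Retn and Fabp4 were measured, and both rose in either sex, with summed medians of 6.46 and 6.48 at 5 weeks and of 6.87 and 6.72 at 12 weeks (from 5.80 to 8 over all groups). Among 7 hepatocyte markers 1 rose and 4 fell in either sex, Cps1 by 0.21 ± 0.014 and 0.18 ± 0.015. Of 5 endothelial and 4 stellate markers 1 each rose, and 2 and 1 fell. The erythroid marker Alas2 rose by 0.41 ± 0.063 in females and by 0.21 ± 0.067 in males. Of 3 lymphocyte markers none was called in females. In males 2 fell, Ms4a1 by 0.19 ± 0.032 and Ptprc, which other leukocytes share, by 0.30 ± 0.050. The summed medians of the 3 were 8.20 and 8.13 at 5 weeks and 8.19 and 7.93 at 12 weeks in females and males. No marker is at 0 on this scale, and the part of these cells in the age differences was not tested.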

How the data were processed

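Liver RNA of each mouse was hybridised to 1 Affymetrix array. The authors deposited log2 expression values made with RMA, per the submitters' processing notes; RMA removes background, brings arrays to a common distribution and summarises probes into probe sets. The table held 15397 probe sets with 0 missing values and 0 identical pairs of arrays. Probe sets with 1 gene symbol were kept, the highest mean per gene, which left 13379 genes. Groups came from the labels' sex and age.

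Differences were tested with limma 3.58.1 (R 4.3.3; lmFit, eBayes), run on the log2 values as deposited, with array batch, read from the array names, as a covariate, with Benjamini-Hochberg adjustment over all genes. Traits were put on the log2 scale and scaled within sex and age; 1 male lacked the liver fat fraction and left those fits. The fits were tested on simulated data. Genes were given in full where the age difference reached 0.3 in a sex, for the 6 largest sex differences of an age, the interaction calls, the 5 largest slopes per trait and age, and the strongest pairs (6 positive, 3 negative); others are given by shorter values or counts. The genes, lists and rules were chosen with earlier results of these data known. Detection calls were not used, so nothing is known of signal over background, and precision rests on the number of arrays. No label explains the batch code.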

Additional observations from a re-analysis of the deposited data

Results flagged for a closer look

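The age difference of 5 genes differed between males and females by the test of the difference itself: Acsm2 (-0.22), Acsm5 (0.15), Acad12 (0.12), Acox2 (0.11) and Acot7 (0.094), on the log2 scale as male minus female.

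Slopes on a trait differed between 12 and 5 weeks, tested as the difference of the slopes, in 34 further cases, given here as log2 per SD, 12 minus 5 weeks. For glucose these were Acot2 (-0.15), Acot9 (-0.095), Acat1 (-0.057), Acsm1 (0.095) and Acadsb (0.043). For insulin they were Acsl3 (0.15), Acsl5 (0.13), Acot13 (0.086), Acsl4 (0.071), Acox3 (0.055), Acat1 (0.052), Acadsb (-0.064) and Acsm2 (-0.088). For triglycerides they were Acot2 (-0.18), Acot9 (-0.10), Acox3 (-0.082), Acad12 (-0.080), Acat1 (-0.073), Acot13 (-0.055), Acadsb (0.067) and Acsm1 (0.13). For free fatty acids they were Acsl3 (0.16), Acot2 (-0.11), Acsm3 (-0.084) and Acat1 (-0.061). For the liver fat fraction they were Acsl3 (0.20), Acsl4 (0.085), Acsl5 (0.085), Acot9 (0.082), Acad12 (0.075), Acot13 (0.049), Acot8 (-0.062), Acadsb (-0.069) and Acsm1 (-0.073). Acadsb and Acat1 appear for 4 of the 5 traits, and the traits are measures of the same mice.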

How the results depend on the processing

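Under the alternatives (no batch term, plate in its place, other scalings, no dim genes, all probe sets, probe set means, array weights, other trait scales, body weight as a covariate, glucose with insulin, 8 or 3 arrays left out, 1 batch left out), 1709 of 1869 recomputed calls of single genes kept their direction and stayed called, 160 were no longer called and 0 reversed; 113 of the 160 were lost without a batch, where fewer mice remain. Each gene here has 1 probe set, so probe set means and the test of all probe sets left its values unchanged. Leaving out dim genes, those not above the median mean level, removed Acad9, Acoxl and Acsm2 and left the values of the others unchanged. These settings could change a call but could not reverse a direction. Leaving out the 3 arrays of high muscle or acinar markers was chosen after seeing the data. Of 194 recomputed counts, 180 stayed within 1.5 times. The 5 interaction calls became 1 without batch 1 and 3 without batch 3. At 5 weeks the 11 glucose calls became 4 with body weight, 7 without batch 3 and 4 without batch 4, and the count of 8 triglyceride calls was 1 with body weight, 3 without batch 1 (2 of the 8 and 1 other gene) and 5 without batch 4. At 12 weeks the count of 6 glucose calls was 2 with insulin in the fit (1 of the 6 and 1 other gene) and 1 without batch 2, the 14 insulin calls became 7 without batch 2, the 11 triglyceride calls became 5 without batch 2, and the 3 free fatty acid calls became 0 without batch 1 and 1 without batch 2. The cause was not tested. No paired analysis was possible because each mouse is its own sample and the groups share no replicate numbers.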
